A study of Mus musculus with 17 samples.

Results

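Mice that lack PPAR γ in T cells were compared with their wild-type counterparts on day 2 of colitis, in 6 of the 17 colonic mucosa samples of the series, which were taken by their titles. PPAR γ is a nuclear receptor, and all mice carried floxed alleles of its gene (PPAR γ fl/fl) on a C57BL/6J background. The 3 CD4cre samples came from Cre+ mice, in which a recombinase driven by the CD4 promoter deletes the gene from both CD4+ and CD8+ T cells, and the 3 WT samples came from Cre- mice. All 6 samples followed 2 days of 2.5% dextran sodium sulfate (DSS) in the drinking water. The genotypes therefore differ in the Cre transgene as well as in the deletion, and epithelial cells and macrophages keep the receptor in both. Values of the same genotypes on day 0 (3 and 3 samples, no DSS) and day 7 (3 CD4cre and 2 WT samples, also 2.5% DSS) are given beside those of day 2. How many mice stand behind each array is not given in the sources used here, so p-values measure only the spread between these samples, part of which may be technical. Ages are not given either.

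DSS injures the colonic epithelium and lets luminal bacteria reach the tissue below it, where macrophages and neutrophils respond first and T cells later. The colonic wall also holds lymphoid follicles, in which B cells gather around stromal cells that secrete the chemokine CXCL13, and which lymphocytes enter through specialised venules. B cells, macrophages and dendritic cells show peptides to CD4+ T cells on MHC class II molecules. A strip of colon can hold many follicles or none, and its epithelium changes along the length of the organ. In bulk RNA, fewer cells of a type and less RNA per cell cannot be told apart.

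RNA was measured on Affymetrix mouse genome arrays as gcRMA signals on the log2 scale, so that a difference of 1 is a doubling. Probe sets at or below 3.31, a level under which 95% of 108 probe sets for genes foreign to the colon lay, are called background here. Between 50.8% and 51.4% of the 45037 probe sets tested lay above it in each of the 6 samples. Goblet cell and colonocyte genes were at the levels of a colonic epithelium, with a signal of 15.4 to 15.8 for the mucin Muc2. T cell genes were near background: the mean signal of 19 measured genes of the list was 3.31 to 3.48 in CD4cre and 3.47 to 3.59 in WT samples, and Cd3e, Cd3g and Cd247 were at background in all 6. Genes of pancreatic digestive enzymes (22 measured) had a median of 12.0 in CD4cre replicate 1 and 11.8 in WT replicate 2, and of 2.37 to 2.60 in the other 4 samples, so pancreatic RNA was present in 1 sample of each genotype. A score of position along the gut, the mean of 9 posterior Hox genes minus that of 8 anterior ones, was 0.52, 0.04 and -0.31 in CD4cre and 1.13, 1.06 and 0.77 in WT samples, without overlap (two-sided exact permutation test, p = 0.1, the smallest that 3 against 3 allows). Each named gene and list was therefore also fitted without the samples with pancreatic RNA and with adjustment for the position score. Those values are given for many, but not all, of the differences that moved by over 1.5 times. Pearson correlations between samples over probe sets above background were 0.970 to 0.992 within CD4cre and 0.982 to 0.992 within WT samples, and 0.973 to 0.987 between the genotypes.

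Pparg itself, the deleted gene, was not lower in CD4cre samples. Its signal was 9.83, 10.11 and 10.40 in CD4cre and 9.21, 9.18 and 9.79 in WT samples, a difference of 0.72 on the log2 scale (95% CI -0.44 to 1.88, SE 0.53, limma adjusted p = 0.821). The CD4cre samples were all above the WT samples, by as little as the step from 9.79 to 9.83, and the difference did not pass the test. The colon epithelium expresses this gene strongly, so the whole-tissue signal does not check the deletion in T cells. Adjusted for the position score the difference was -0.25.

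The genotypes differed in few probe sets on day 2. Of 45037 probe sets, 19 (0.0422%) were called at an adjusted p under 0.05 in limma, 15 of them (0.0333%) higher and 4 (0.00888%) lower in CD4cre samples, and 3302 had an unadjusted p under 0.05. The 19 stand for 13 named genes and 3 probe sets without a gene name, and in each of the 19 the genotypes did not overlap. The count rose to 85 (38 higher and 47 lower) when the 3 samples of the series with pancreatic RNA were left out, which kept 9 of the 19 calls. Without CD4cre replicate 1 alone it was 140, and all 19 calls stayed. It was 40 and 57 without CD4cre replicate 2 or 3, and 44 and 55 without WT replicate 2 or 3. Lower calls outnumbered higher ones without WT replicate 1 (17 against 9), 2 (28 against 16) or 3 (37 against 18).

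Wdfy1, which encodes a protein that binds phosphatidylinositol 3-phosphate on early endosomes, showed the difference with the lowest p. Its probe set with the highest signal read 9.63, 10.02 and 9.88 in CD4cre and 6.41, 6.81 and 6.55 in WT samples, a 9.51-fold difference (3.25 on the log2 scale, SE 0.23, limma adjusted p = 0.000303). The 2 other measurable probe sets gave differences of 3.84 (adjusted p = 0.000458) and 3.44 (adjusted p = 0.00982), while 2 more probe sets of the gene were at background in all 6 samples. The difference was already present without DSS: in the first probe set it was 3.22 on day 0 and 2.54 on day 7, and the difference between day 2 and day 0 was 0.03. Wdfy1 supplied 2 of the 3 probe sets called between the genotypes on day 0. Of the 10 genes with a probe set on either side of Wdfy1 on its chromosome, 20 in all and 5 of them at background in both genotypes, none was called on day 2 by limma, 2 had an unadjusted p under 0.05, and the differences ran from -0.55 to 0.20. On day 7 the neighbour Kcne4, a potassium channel subunit, had a difference of 2.55 (adjusted p = 0.0257), as large as that of Wdfy1 on that day, after 0.12 on day 0 and 0.20 on day 2. Neither leaving out any 1 sample nor the position score ended the calls of the first 2 probe sets.

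**Figure D1:**
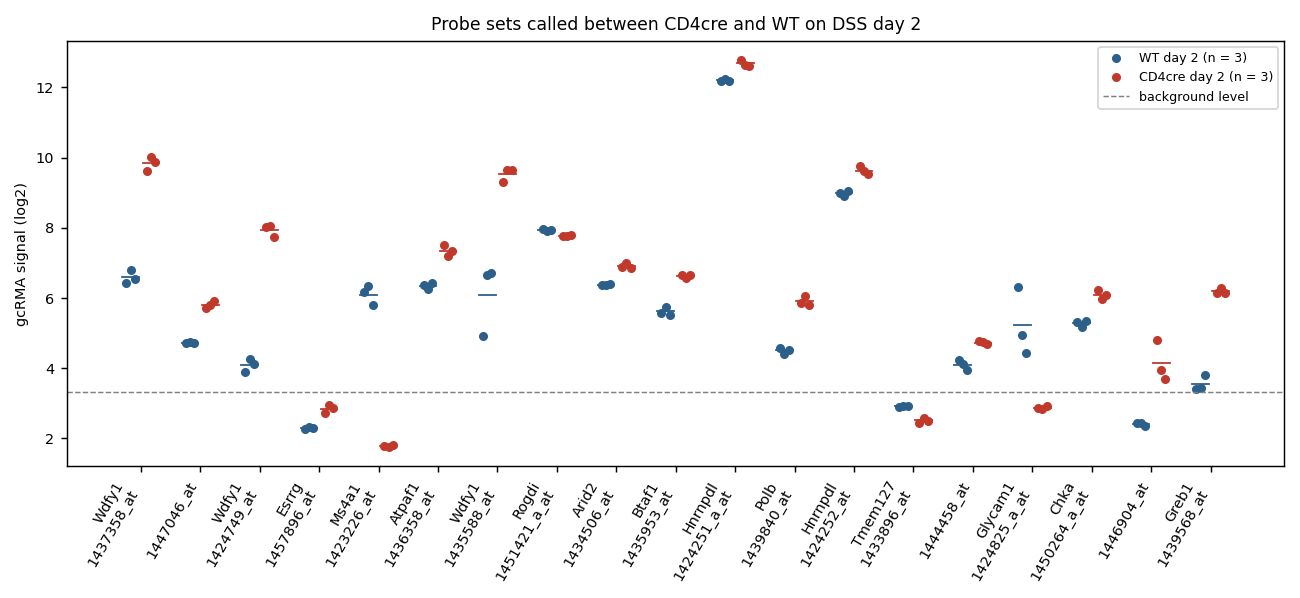
gcRMA signal (log2) of the 19 probe sets called between the genotypes, in order of their p, in the 3 WT (blue) and 3 CD4cre (red) samples of day 2; short lines are group means and the dashed line is the background level of 3.31. The 3 Wdfy1 probe sets are far apart between the genotypes, Ms4a1 and Glycam1 are at background in CD4cre, and Esrrg and Tmem127 are under the line in both.

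Ms4a1 and Glycam1 were lower in CD4cre samples, and both belong to lymphoid tissue. Ms4a1 encodes CD20, a surface protein of B cells. Its called probe set read 1.78, 1.75 and 1.81 in CD4cre and 6.17, 6.34 and 5.79 in WT samples. CD4cre signals were thus all at background, and the gene was at least 6.88-fold higher in WT (log2 difference -4.32, SE 0.45, limma adjusted p = 0.00499). No alternative ended this call. The second probe set of Ms4a1, which has the higher signal, read 3.65, 3.77 and 4.14 against 6.99, 6.32 and 6.62 and narrowly missed the threshold (-2.79, SE 0.43, adjusted p = 0.0502). On day 0 both genotypes were at background in the first probe set (1.78 to 1.80 in CD4cre and 1.78 to 1.82 in WT), so of the 4 groups of days 0 and 2 only WT on day 2 was above background in it. In the second probe set all 4 groups were above background, with 3.75 to 4.03 in WT and 3.79 to 3.84 in CD4cre samples on day 0. On day 7 the first probe set read 4.44 and 3.02 in WT samples and 1.95, 3.75 and 1.78 in CD4cre samples. The second read 5.33 and 5.42 in WT samples and 3.76, 5.89 and 3.88 in CD4cre samples on that day.

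Glycam1 encodes a mucin-like ligand of L-selectin on the venules through which lymphocytes enter lymph nodes. It read 2.86, 2.84 and 2.93 in CD4cre and 6.32, 4.96 and 4.44 in WT samples, at least 3.79-fold higher in WT (log2 difference -2.36, SE 0.33, limma adjusted p = 0.031). The 3 WT samples of day 2 were the only ones of the 17 above background. The call was lost after adjustment for the position score (-2.29, adjusted p = 0.106) and without the samples with pancreatic RNA (-2.49, adjusted p = 0.104), both with nearly the same difference. Without CD4cre replicate 2 or 3 the call was lost as well, and it was lost in 8 of 17 alternatives in all.

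The other genes of B cells did not pass the test, and those that were measurable were mostly lower in CD4cre samples. Of 14 measured genes of the B cell list, none was called by limma with 1 probe set per gene. Of them 6 had an unadjusted p under 0.05 with a lower value in CD4cre, against 3.16% of the 18193 genes. In 7 of the 14 the CD4cre samples lay below the WT samples without overlap (6.5% of all genes), and 7 of the 14 were at background on average over the series. Ms4a1, by its second probe set, is in the list and in the counts of lower genes, while Tnfrsf13c and Pou2af1 are not in the list. The median difference was -0.28, beside -0.01 for all genes. Cd79b, a signalling chain of the B cell receptor, read 3.37, 3.83 and 3.74 against 6.47, 6.44 and 6.27 (-2.75, SE 0.48, adjusted p = 0.08). Tnfrsf13c, the receptor for the B cell survival factor BAFF, read 4.53, 4.69 and 4.62 against 5.42, 5.89 and 5.22 (-0.90, SE 0.14, adjusted p = 0.059). Spib, a transcription factor of B cells and M cells, read 3.57, 3.57 and 3.58 against 5.26, 4.61 and 4.23 (-1.12, adjusted p = 0.186). These 3 genes were each separated between the genotypes, with the CD4cre samples within 0.5 of each other. Pan-B cell genes did not all follow: Cd79a, Pax5 and Blk were at background in all 6 samples, and Blnk and Ebf1, at signals of 11.2 to 11.4 and 6.21 to 6.65, differed by 0.03 and 0.13. Pou2af1, a B cell coactivator that is also high in plasma cells, read 5.70, 4.49 and 4.15 against 5.82, 7.13 and 6.37 (-1.66, adjusted p = 0.735). After adjustment for the position score the difference of Pou2af1 was -0.18. None of the 11 genes of plasma cells was called.

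Follicle genes showed the same order of the genotypes. All 11 measured genes of the follicle list had a lower mean in CD4cre samples, as had 10530 of all 18193 genes. In 10 of the 11 the genotypes did not overlap (6.5% of all genes), and the median difference was -0.64. Only 5 of the 11 were above background on average over the series, and Cr2 and Fcer2a are also in the B cell list. Glycam1 was the only one called, and 7 had an unadjusted p under 0.05, all as lower (3.16% of all genes). Cxcl13, the chemokine that draws B cells into follicles, read 7.38, 7.62 and 7.23 in CD4cre and 9.78, 9.21 and 9.44 in WT samples, a 4.19-fold difference that did not pass (-2.07, SE 0.44, adjusted p = 0.145). Ltb, a lymphotoxin chain needed to form follicles, read 4.26, 4.87 and 4.99 against 6.54, 5.81 and 6.07 (-1.43, SE 0.39, adjusted p = 0.307). Madcam1, the venule address protein to which gut-homing lymphocytes bind, read 3.58, 2.87 and 4.03 against 4.52, 4.66 and 4.54 (-1.08, SE 0.53, adjusted p = 0.722, and -0.60 after adjustment for the score). On day 0 Cxcl13 was 6.51 to 6.90 in WT and 6.07 to 7.26 in CD4cre, and its genotype difference was 0.01. The median of the list was -0.60 after adjustment for the position score and -0.74 without the samples with pancreatic RNA. Of T cell genes, Il7r, the receptor for interleukin 7, read 4.38, 4.40 and 5.52 against 6.22, 5.65 and 5.63 (-1.07, adjusted p = 0.23), and Cd3d read 2.22, 2.59 and 3.61 against 4.12, 3.88 and 3.09, with overlap (-0.89, and -0.51 without pancreatic RNA). The share of these genes that the number of follicles in a sample sets was not tested.

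MHC class II genes were also lower in CD4cre samples, without any call. Of 13 measured genes of the list none passed, and 9 had an unadjusted p under 0.05 with a lower value in CD4cre (3.16% of all genes). In 8 the CD4cre samples lay below the WT samples without overlap (6.5% of all genes), and the median difference was -0.97. The list also holds Ctss, Lgmn and Ifi30, which encode no class II chain. Class II genes share promoter elements, one of which, the Y box, is bound by the factor NF-Y. The RefSeq table of promoters (GRCm38.p6) holds 11 of the 14 genes of the list, and TGATTGG, the letters of the Y box searched here on both strands in the 250 bases before the start, stood in 7 of the 11 and in 7.23% of all 32851 entries. The 5 windows printed here are of class II genes described in the next paragraph, to show the element they share, with the motif in capitals.
H2-Ob: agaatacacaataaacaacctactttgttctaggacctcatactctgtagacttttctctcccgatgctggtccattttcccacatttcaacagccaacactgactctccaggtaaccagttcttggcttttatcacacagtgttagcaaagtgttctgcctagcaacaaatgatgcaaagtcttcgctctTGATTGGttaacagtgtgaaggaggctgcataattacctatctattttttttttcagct
H2-Oa: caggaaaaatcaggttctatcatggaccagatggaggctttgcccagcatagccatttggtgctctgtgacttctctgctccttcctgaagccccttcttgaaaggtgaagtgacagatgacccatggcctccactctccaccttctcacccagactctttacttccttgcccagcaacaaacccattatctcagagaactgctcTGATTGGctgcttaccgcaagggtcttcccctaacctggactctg
H2-DMb2: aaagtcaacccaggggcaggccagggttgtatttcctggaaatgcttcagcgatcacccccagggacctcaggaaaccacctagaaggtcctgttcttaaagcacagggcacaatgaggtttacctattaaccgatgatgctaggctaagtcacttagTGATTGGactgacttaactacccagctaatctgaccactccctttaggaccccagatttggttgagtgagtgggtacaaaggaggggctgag
H2-Aa: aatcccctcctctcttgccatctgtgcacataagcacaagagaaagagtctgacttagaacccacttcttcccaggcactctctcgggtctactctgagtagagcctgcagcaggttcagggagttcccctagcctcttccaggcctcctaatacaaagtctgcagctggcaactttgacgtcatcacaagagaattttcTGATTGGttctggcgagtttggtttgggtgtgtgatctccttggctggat
H2-Eb1: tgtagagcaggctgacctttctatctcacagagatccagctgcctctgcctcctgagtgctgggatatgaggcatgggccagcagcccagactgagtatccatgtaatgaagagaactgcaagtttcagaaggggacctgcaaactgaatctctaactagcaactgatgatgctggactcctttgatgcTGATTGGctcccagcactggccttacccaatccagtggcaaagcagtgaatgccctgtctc

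The H2-Ob window was chr17:34238655-34238904 on the plus strand, and the centre of the motif lay 56 bases before the start. The H2-Oa window was chr17:34092129-34092378 on the plus strand, and the centre of the motif lay 42 bases before the start. The H2-DMb2 window was chr17:34144999-34145248 on the plus strand, and the centre of the motif lay 89 bases before the start. The H2-Aa window was chr17:34287824-34288073 on the minus strand, and the centre of the motif lay 47 bases before the start. The H2-Eb1 window was chr17:34305617-34305866 on the plus strand, and the centre of the motif lay 58 bases before the start. A match is a description of letters and not a bound site, and the window of H2-DMa, whose difference was -1.36, held none.

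The class II genes with the lowest p were H2-Ob, H2-DMb2 and H2-Oa. H2-Ob and H2-Oa encode the chains of H2-O, which restrains peptide loading and is typical of B cells. H2-Ob read 2.81, 2.74 and 2.79 in CD4cre, at background, and 5.39, 4.25 and 4.49 in WT samples, at least 2.63-fold higher in WT (-1.93, SE 0.35, adjusted p = 0.103). H2-Oa read 2.41, 2.41 and 2.46 against 4.05, 3.04 and 2.97 (-0.93, SE 0.20, adjusted p = 0.158), so that only WT replicate 1 was above background. H2-DMb2, a chain of the loading catalyst H2-DM, read 5.23, 5.45 and 5.29 against 7.34, 6.47 and 6.39 (-1.41, SE 0.27, adjusted p = 0.108), and its 2 other probe sets gave -1.20 and -1.70. Its close copy H2-DMb1 may share probes with it. The classical chains were named after their values were seen. H2-Aa read 11.56, 11.66 and 12.12 against 14.09, 12.56 and 12.19 (-1.17, adjusted p = 0.48), H2-Eb1 read 9.49, 9.65 and 10.10 against 11.70, 10.36 and 10.10 (-0.97, adjusted p = 0.503), and the invariant chain Cd74 read 10.58, 10.55 and 10.99 against 13.21, 11.56 and 11.31 (-1.32, adjusted p = 0.412). WT replicate 1 was the highest sample in each. Without it the median of the list was -0.58 in place of -0.97, and the differences of H2-Aa and Cd74 were -0.60 and -0.73. In the same sample the mean signal of 35 interferon-stimulated genes was 8.34, beside 7.24 and 7.30 in the other WT and 7.09 to 7.65 in CD4cre samples. Without it the median difference of these genes turned from -0.21 to 0.03, while it was -0.34 after adjustment for the score and -0.39 without pancreatic RNA. The class II transactivator Ciita was at background in all 6.

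**Figure D2:**
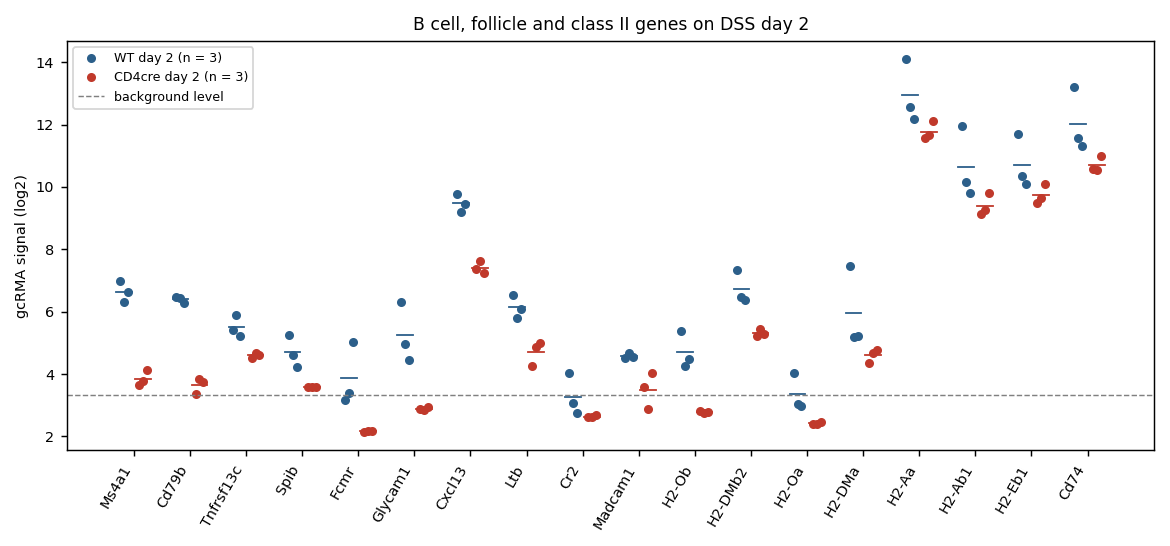
gcRMA signal (log2) of genes of B cells, follicles and MHC class II in the 3 WT (blue) and 3 CD4cre (red) samples of day 2; short lines are means and the dashed line is the background level. The genes shown were picked with their values known, and they leave out Cd79a, Pax5, Blk, Blnk and Ebf1. Of all 14 measured genes of the B cell list, 10 had a lower and 4 a higher mean in CD4cre samples. CD4cre samples lie below WT samples in all genes shown except H2-Eb1, where they overlap. Ms4a1 is shown with its probe set of highest signal, and in the class II genes 1 WT sample stands above the other 2.

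Clusterin and genes of other roles filled the rest of the lower side, none of them called. Clu, a secreted chaperone of injured and regenerating epithelium and of follicular stroma, read 7.49, 7.31 and 7.43 in CD4cre and 9.94, 9.44 and 9.12 in WT samples, a 4.26-fold difference (-2.09, SE 0.34, adjusted p = 0.06), and its 3 other probe sets gave -1.71 to -1.80 without overlap. On day 0 Clu was 7.39 to 7.68 in WT and 6.87 to 7.55 in CD4cre samples. Fbxo32, a ubiquitin ligase subunit known from muscle atrophy, read 5.44, 5.32 and 4.90 against 6.55, 6.26 and 6.17 (-1.11, SE 0.18, adjusted p = 0.06). Pdlim5, a scaffold protein of the actin cytoskeleton, read 5.30, 5.50 and 4.95 against 6.48, 5.96 and 6.31 (adjusted p = 0.06). Gpr89, Chrdl1, Fam161a and Otud4 had differences of -0.25 to -0.67 with an adjusted p of 0.06 to 0.08, all without overlap. Slc1a1, a glutamate transporter, and Akt1s1, an inhibitor of mTORC1, were at background in CD4cre samples and at least 1.68-fold and 1.16-fold higher in WT (adjusted p = 0.06 and 0.0785). Hpgds, the prostaglandin D2 synthase found in tuft and mast cells, read 3.31, 3.34 and 3.36 against 3.71, 4.08 and 4.16 (-0.64, SE 0.10, adjusted p = 0.0502). Of 16 genes of mast cells and eosinophils none was called and the median was -0.02, but only 2 of the 16 were above background on average over the series. Of 13 tuft cell genes, Hpgds among them, none was called and 2 had an unadjusted p under 0.05 as lower (3.16% of all genes). In 3 of the 13 CD4cre lay below WT without overlap (6.5% of all genes). The tuft median was -0.22, or -0.06 after adjustment for the position score. The immediate early gene Btg2 read 8.32, 8.41 and 8.15 against 9.40, 8.91 and 8.84 (-0.76, SE 0.14, adjusted p = 0.105). The 26 immediate early genes had a median of -0.29, which was -0.00 after adjustment for the position score and -0.18 without the samples with pancreatic RNA.

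The remaining 2 lower calls were small or not measurable. Rogdi, a gene of neuronal and dental development, read 7.77, 7.77 and 7.80 against 7.97, 7.90 and 7.94, a 1.11-fold difference (-0.15, SE 0.02, limma adjusted p = 0.0102). It lay between 7.77 and 7.97 in all 17 samples. Tmem127 was called in a probe set that was at background in all 6 samples, while its other probe set, at 9.26 to 9.74, differed by 0.29 in the other direction (adjusted p = 0.511). Esrrg, an estrogen-related receptor, was called as higher in a probe set at background as well, and its measurable probe set was lower in CD4cre by 1.12 (adjusted p = 0.692).

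Of the genes called as higher in CD4cre samples, Greb1, Atpaf1 and Arid2 were called on day 7 in the opposite direction. Greb1, an estrogen-regulated gene, read 6.15, 6.28 and 6.13 in CD4cre and 3.42, 3.44 and 3.81 in WT samples, a 6.19-fold difference (2.63, SE 0.39, limma adjusted p = 0.0463). It was near 5.79 in CD4cre and 5.54 in WT samples on day 0, so WT on day 2 was the low group, and on day 7 the CD4cre samples were low (3.02 to 3.71, difference -2.22, adjusted p = 0.0307). A second probe set gave 1.07 (adjusted p = 0.586). The call was lost in 10 of 17 alternatives. Atpaf1, an assembly factor of the mitochondrial ATP synthase, read 7.52, 7.19 and 7.34 against 6.36, 6.25 and 6.42 (1.01, SE 0.11, adjusted p = 0.00982) and differed by -1.17 on day 7 (adjusted p = 0.00185). Its second probe set, with the higher signal, gave 0.20 (adjusted p = 0.642). Whether these differences changed between day 2 and day 7 was not tested.

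The other genes called as higher act in RNA processing, chromatin and lipid or DNA metabolism. Hnrnpdl, an RNA-binding protein, read 12.78, 12.65 and 12.62 against 12.18, 12.25 and 12.19 in its strongest probe set (0.48, SE 0.06, adjusted p = 0.0207) and 0.64 in another (adjusted p = 0.0213), and its 5 other probe sets gave 0.30 to 0.52. Both calls were lost with the position score (adjusted p = 0.0786 and 0.0923) and without the samples with pancreatic RNA. Arid2, a subunit of the PBAF chromatin remodeller, read 6.88, 7.01 and 6.87 against 6.37, 6.36 and 6.39 (0.55, SE 0.06, adjusted p = 0.0116) and differed by -0.39 on day 7 (adjusted p = 0.0271), and its strongest probe set gave 0.28 (adjusted p = 0.267). Btaf1, which removes the TATA-binding protein from DNA, read 6.66, 6.58 and 6.65 against 5.58, 5.75 and 5.52 (1.01, SE 0.13, adjusted p = 0.0183), while its 2 stronger probe sets gave 0.05 and 0.20. Polb, the DNA polymerase of base excision repair, was called in 1 probe set (5.85, 6.07 and 5.79 against 4.59, 4.41 and 4.53, adjusted p = 0.0207), and its other 3 differed by -0.00 to 0.04. Chka, choline kinase, read 6.22, 5.97 and 6.09 against 5.33, 5.17 and 5.33 (0.82, SE 0.12, adjusted p = 0.0363), and its 2 other probe sets gave 0.03 and 0.06 with overlap. On day 7 the differences of Btaf1, Chka, Polb and the called Hnrnpdl probe sets were -0.28, -0.16, 0.46, -0.02 and -0.10, none of them called. On day 0 the differences of Btaf1, Chka, Polb and Arid2 were already 0.39, 0.68, 0.54 and 0.23. Those of the called Hnrnpdl probe sets were 0.07 and -0.01 on day 0, and no gene of this paragraph was called on that day. For Btaf1, Polb and Chka the call thus held in 1 probe set of the gene and not in the others. The 3 called probe sets without a gene name were 1447046_at (5.71, 5.81 and 5.91 against 4.71, 4.73 and 4.71), 1444458_at and 1446904_at.

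Several splicing factors stood just short of the threshold, while the families they belong to had medians near 0. Luc7l3, Srsf11, Pnn, Sf3b1 and Ccnl2, all of the spliceosome or its nuclear speckles and named after their values were seen, were higher in CD4cre in 1 probe set each by 0.34 to 0.53 (adjusted p = 0.0502 to 0.06), without overlap. The other probe sets of Sf3b1 gave -0.01, -0.08 and 0.07, all with overlap. Those of Srsf11 gave 0.28, 0.40 and -0.59, the last 2 with overlap. Those of Luc7l3 gave 0.54 and, with overlap, 0.19. Of 10 measured SR genes, those named Srsf and a number, 1 had an unadjusted p under 0.05 as higher and 1 as lower, and the median was -0.02. Of 19 genes named Hnrnp, Hnrnpdl was the one called, 2 had an unadjusted p under 0.05 as lower, and the median was -0.02. These 2 families were chosen after the values were seen.

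Genes of the distal colon had large differences that did not pass. Atp12a, the non-gastric H+/K+ ATPase of the distal colon, had the largest difference of any probe set: 7.78, 6.33 and 5.57 in CD4cre and 12.47, 12.35 and 11.12 in WT samples, 43.0-fold lower in CD4cre (-5.43, SE 1.19, adjusted p = 0.163). After adjustment for the position score it was -3.43 (adjusted p = 0.241). Outside WT on day 2 it was above 8 in a single sample, CD4cre replicate 2 of day 7, at 10.56. Best2, a chloride channel of colonic goblet cells, read 6.97, 5.59 and 4.69 against 7.36, 7.81 and 7.79 (-1.90, adjusted p = 0.479, and -0.89 with the score). The tight junction gene Cldn8 read 8.83, 8.62 and 8.20 against 10.47, 9.92 and 9.47 (-1.41, adjusted p = 0.73, and -0.37 with the score). Ccl28, a chemokine of colonic epithelium, read 10.64, 10.06 and 9.79 against 11.33, 11.18 and 11.12 (-1.05, and -0.40 with the score). All 4 of these genes were separated between the genotypes.

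Among single Hox genes, Hoxb13 varied more between CD4cre samples and Hoxd13 more between WT samples. Hoxb13, the most posterior of its cluster, read 10.87, 8.79 and 6.60 in CD4cre and 11.16, 11.54 and 11.08 in WT samples (-2.50, SE 1.97, adjusted p = 0.832). Hoxd13 was at background in CD4cre replicates 2 and 3, read 3.98 in replicate 1, and read 6.37, 7.60 and 3.92 in WT samples, with overlap (-2.73, adjusted p = 0.354). The anterior gene Hoxa2 went the other way, at 5.04, 4.61 and 5.10 against 4.15, 3.83 and 4.10 (0.89, adjusted p = 0.589). Posterior Hox genes went both ways: of 14 measured, 9 had a lower and 5 a higher mean in CD4cre samples, with a median of -0.02. Of these, 2 were higher without overlap (7.89% of all genes) and 1 was lower (6.5%). By the position score, WT samples of day 2 were the most posterior of all 17. The part of position in any gene's difference beyond the covariate fit was not tested.

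**Figure D3:**
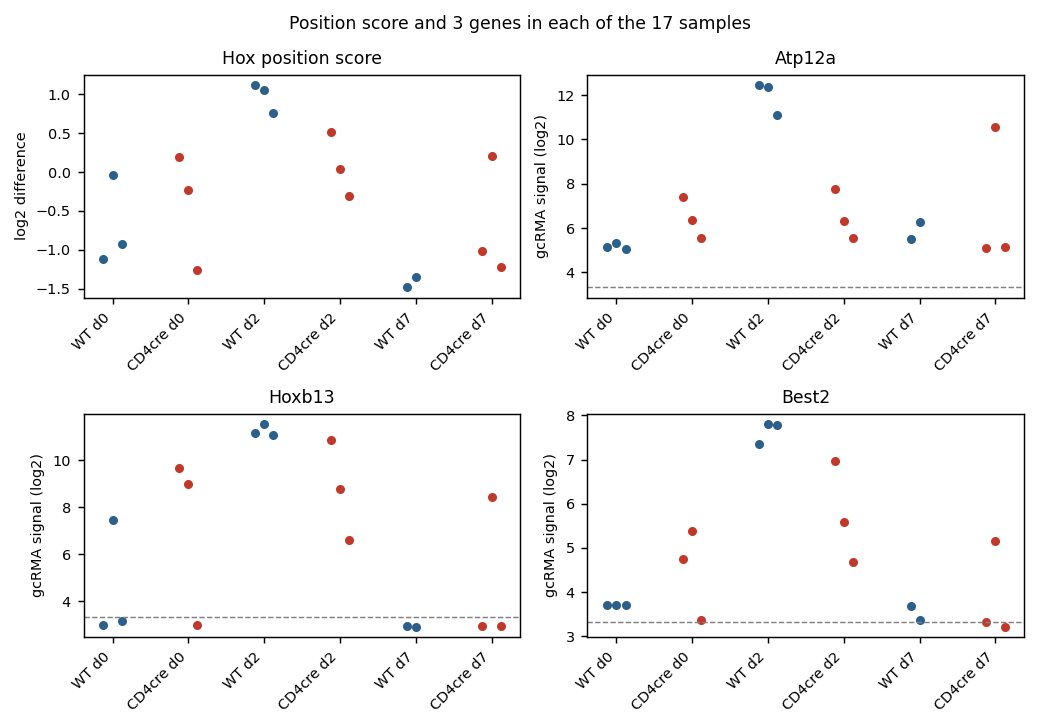
Hox position score (log2 difference of posterior and anterior Hox genes) and gcRMA signal (log2) of Atp12a, Hoxb13 and Best2 in each of the 17 samples, WT in blue and CD4cre in red, by day of DSS (d0, d2, d7); dashed lines mark background. The 3 WT samples of day 2 are the highest in all 4 panels.

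Some genes of the circadian clock had higher values in CD4cre samples on day 2, again without a call, and others did not. The clock is a loop in which BMAL1 and CLOCK drive Per and Cry genes, whose products inhibit them, and the PAR bZIP factors Dbp and Hlf follow the loop. Of 16 core clock genes 10 had a higher and 6 a lower mean, 3 had an unadjusted p under 0.05, all as higher (4.48% of all genes), and the median was 0.10, or 0.06 without pancreatic RNA. Of 11 clock output genes 6 had a higher and 5 a lower mean, 2 had an unadjusted p under 0.05 as higher and 1 as lower, and the median was 0.12, or 0.01 after adjustment for the score. Per3 read 7.58, 7.11 and 6.10 against 5.17, 5.17 and 5.75 (1.57, SE 0.35, adjusted p = 0.173). Rora, an activator of Bmal1, read 7.13, 7.54 and 7.46 against 6.33, 6.75 and 6.06 (0.99, adjusted p = 0.348), and the repressor Cry2 differed by 0.58 (adjusted p = 0.494). Dbp read 11.99, 11.47 and 11.77 against 9.90, 10.75 and 10.99 (1.20, SE 0.34, adjusted p = 0.347, and 0.79 with the score) and Hlf differed by 0.71 (adjusted p = 0.54). Per2, by contrast, read 8.88, 8.91 and 8.30 against 8.58, 8.54 and 8.82, a difference of 0.05 with overlap. Per3, Dbp and Hlf were also higher in CD4cre on day 0 (by 0.69, 0.85 and 1.18) and lower on day 7 (differences of -1.54, -1.60 and -0.97). The hour at which each sample was taken is not given in the sources used here, so time of day and genotype cannot be told apart.

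Genes that answer to glucocorticoids, the adrenal hormones with a daily rhythm, went both ways. Of 20, none was called, 2 had an unadjusted p under 0.05 as higher (4.48% of all genes) and 3 as lower (3.16%). The metallothionein Mt2, which binds zinc, read 11.19, 12.19 and 11.78 in CD4cre and 9.06, 10.21 and 10.37 in WT samples (1.84, SE 0.56, adjusted p = 0.401), and Mt1 differed by 1.17 (adjusted p = 0.526, and 0.72 with the score). Tsc22d3, the glucocorticoid-induced leucine zipper, read 8.95, 9.24 and 8.72 against 9.93, 10.07 and 10.23 (-1.10, SE 0.28, adjusted p = 0.267). On day 0 the order was the opposite: CD4cre samples of Tsc22d3 read 9.38, 9.52 and 9.33 and WT samples 7.91, 8.96 and 7.93 (difference 1.14). The change of the genotype difference between the days was -2.24, and in a second probe set -2.75 (adjusted p = 0.0993), which did not pass.

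Stromal genes tended to be higher in CD4cre samples. All 21 measured genes of fibroblasts and matrix had a higher mean, 10 of them without overlap (7.89% of all genes), with a median difference of 0.34 and no call. The matrix protease Mmp2 read 9.37, 10.08 and 10.03 against 8.72, 8.84 and 8.90 (1.01, SE 0.35, adjusted p = 0.494), and the matrix protein Postn differed by 0.37 (adjusted p = 0.407). Of 15 smooth muscle genes, 14 had a higher mean and 4 an unadjusted p under 0.05 as higher (4.48% of all genes). Synpo2, an actin-binding protein of muscle, read 9.87, 10.88 and 11.11 against 9.46, 9.73 and 9.62 (1.02, SE 0.28, adjusted p = 0.329, and 0.63 with the score), Smtn differed by 0.63 and Myh11 by 0.49. After adjustment for the position score the medians were 0.74 and 0.42 and without the samples with pancreatic RNA they were 0.50 and 0.37, for the 2 lists in turn. How much muscle or submucosa each sample held was not tested.

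In the epithelium, the mucin Muc2 read 15.73, 15.72 and 15.78 in CD4cre and 15.42, 15.35 and 15.36 in WT samples (0.37, SE 0.07, adjusted p = 0.115), a tight separation near the top of the scale. Cldn4, a tight junction protein, read 7.65, 8.12 and 8.90 against 6.89, 6.60 and 7.45 (1.24, adjusted p = 0.408), and on day 0 it differed by -1.06. Axin2, a target of Wnt signalling in crypts, read 5.15, 5.83 and 4.83 against 4.64, 4.50 and 4.67 (0.66, adjusted p = 0.514). None of the 16 crypt genes, 19 goblet genes or 30 colonocyte and ion transport genes was called. Dividing-cell genes did not separate: Mki67 read 9.03, 9.27 and 9.18 against 8.81, 9.31 and 8.28, Cenpf differed by 0.38 (adjusted p = 0.852), and the 29 mitosis and 28 DNA replication genes had medians of -0.06 and 0.04. Without pancreatic RNA the differences of Mki67 and Cenpf were 0.68 and 0.65 and the medians 0.19 and 0.18, and with the score the medians were -0.10 and -0.13. Of 29 genes of the unfolded protein response 4 had an unadjusted p under 0.05, all as lower (3.16% of all genes). Sdf2l1, a chaperone partner in the endoplasmic reticulum, read 6.62, 6.65 and 6.41 against 7.57, 7.35 and 7.44 (-0.89, SE 0.24, adjusted p = 0.301), and Herpud1 and Eif2ak3 differed by -0.48 and -0.29. Herpud1 was at -0.18 with the score. The median of that list was -0.10, and -0.01 with the position score.

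Inflammatory genes with large genotype differences on day 7 had none that passed on day 2. Il1b, a cytokine of macrophages, overlapped between the genotypes, at 4.31 or above in each of the 6 samples (-0.05, SE 0.76, 95% CI -1.70 to 1.61, adjusted p = 0.994). Il6, Il10, Foxp3 and Selp were at background in all 6 samples. Socs3, a feedback inhibitor of cytokine signalling, read 7.69, 7.89 and 8.22 against 8.05, 9.89 and 7.55, where WT replicate 2, one of the samples with pancreatic RNA, stood apart (-0.57, adjusted p = 0.85, and 0.25 without pancreatic RNA). On day 7 the genotype differences were 5.04 for Il1b, 6.62 for Il6 and 3.30 for Socs3. Of 17 genes of leukocyte extravasation none was called and none had an unadjusted p under 0.05. The adhesion molecules Icam1 and Vcam1 differed by -0.19 and -0.20, the integrins Itgav, Itgax and Itgb2 by 0.18, -0.12 and -0.41, and the genotypes overlapped in each of these 5. With the score Itgav was at 0.55 and Itgb2 at -0.02, and without pancreatic RNA Icam1 was at -0.09. Cd4 and Cd8a, the coreceptors of the 2 main kinds of T cell, read 3.13 to 3.74 and 4.27 to 4.37 over the 6 samples. Their differences were -0.08 and -0.03, or -0.24 and -0.10 with the score, and the genotypes overlapped. Zbtb16, the transcription factor PLZF, also overlapped and differed by -0.11 (adjusted p = 0.881).

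Some acute phase and chemokine genes had lower values in CD4cre samples, without a call. The serum amyloid genes Saa1 and Saa2 read 12.83 to 13.58 and 8.51 to 9.31 in CD4cre against 14.01 to 14.28 and 9.55 to 9.87 in WT samples, differences of -1.02 and -0.78 (adjusted p = 0.637 and 0.627). After adjustment for the score they were -0.37 and -0.33. Saa1 and Saa2 were higher in CD4cre on day 7 by 1.22 and 1.10. Ccl5, a chemokine of T cells, read 2.51, 3.80 and 2.83 against 6.23, 4.42 and 4.31 (-1.94, SE 0.76, adjusted p = 0.588). Of 33 chemokine genes 5 had an unadjusted p under 0.05, all as lower (3.16% of all genes). The median of the chemokines was -0.03, beside -0.01 for all genes, and 0.10 with the score. Cebpd, a transcription factor of the acute phase, differed by -0.98 (adjusted p = 0.622), by -0.52 with the score and -0.60 without pancreatic RNA, and on day 7 by 2.77. None of 16 neutrophil genes had an unadjusted p under 0.05.

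Metabolic and ribosomal genes held no call on day 2. The 44 genes of oxidative phosphorylation had a median of 0.10 with 42 of 44 higher and none with an unadjusted p under 0.05, and the median was -0.04 with the position score. The 27 citrate cycle genes had a median of 0.05, the 42 cytosolic ribosomal protein genes of -0.00, the 29 PPAR target genes of 0.08 and the 27 apoptosis genes of -0.03. With the score the medians of the citrate cycle, PPAR target and apoptosis genes were -0.08, -0.23 and -0.08, so the first 2 changed sign. In that fit 3 of the 29 PPAR target genes had an unadjusted p under 0.05, all as lower. Of all 45037 probe sets, 4917 had an unadjusted p under 0.05 in the same fit, in either direction, so the 3 are no excess. Without pancreatic RNA the PPAR target and apoptosis medians were 0.19 and -0.09. Ndrg1, which rises in low oxygen, read 12.16, 12.58 and 12.99 against 11.64, 11.56 and 11.91 (0.88, SE 0.25, adjusted p = 0.349). The xenobiotic genes Abcg2 and Ces2a, a drug exporter and an esterase, differed by 0.73 and 1.39 (adjusted p = 0.503 and 0.553), both without overlap, and by 0.44 and 0.41 with the score.

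**Figure D4:**
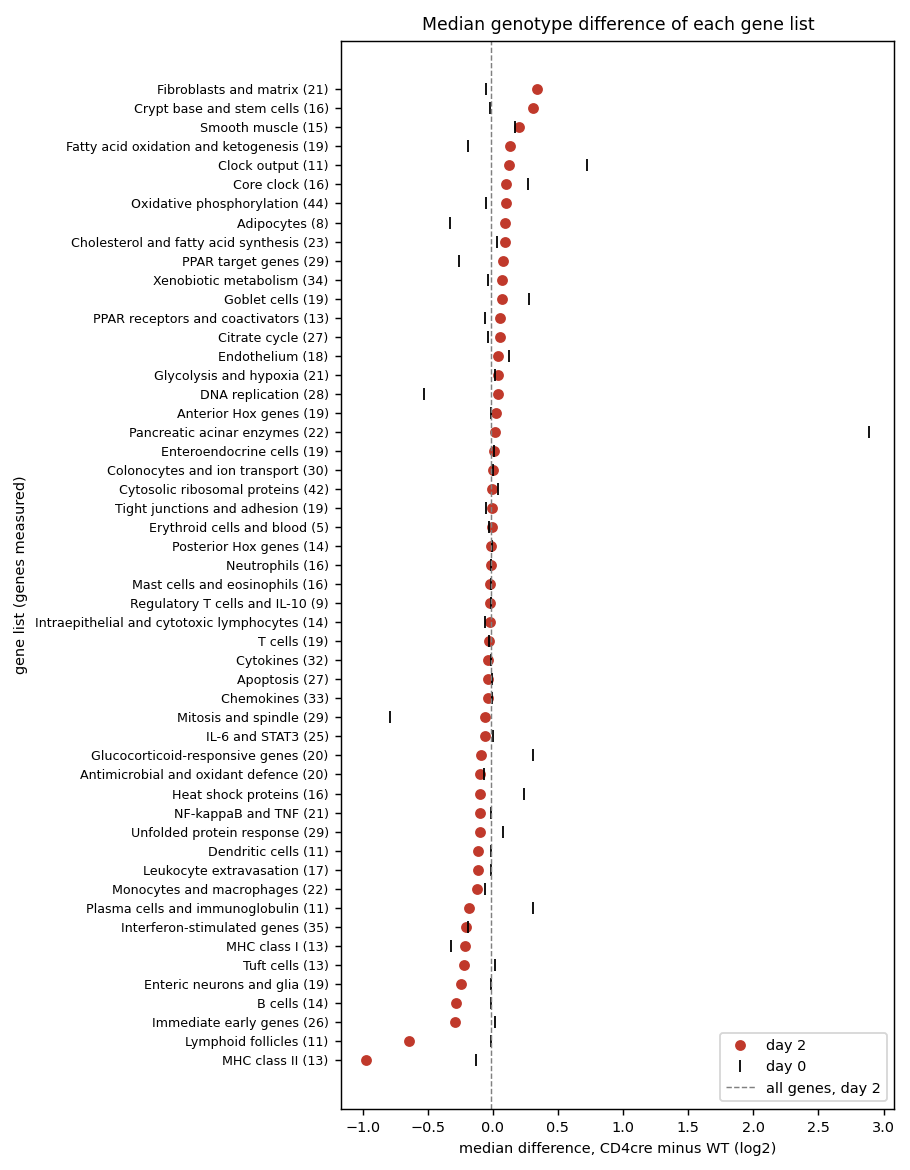
Median difference between CD4cre and WT samples (log2) of each of the 52 gene lists on day 2 (red points) and day 0 (black bars), with the number of genes measured; the dashed line is the median of all 18193 genes on day 2. MHC class II and lymphoid follicles have the lowest medians on day 2 (-0.97 and -0.64) and fibroblasts and matrix the highest (0.34); on day 0 the list of pancreatic enzymes stands at 2.89.

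The called probe sets of day 2 were seldom those of the other days. Genotype differences were called in 3 probe sets on day 0 and 681 on day 7, and of the 19 of day 2, 2 were also called on day 0, both of Wdfy1, and 6 on day 7. The difference on day 2 minus that on day 0 passed for 1 of 45037 probe sets (0.00222%), 1447046_at, which has no gene name (1.11, limma adjusted p = 0.0369), with 1926 at an unadjusted p under 0.05. Ms4a1 had an estimate of -4.31 there and Glycam1 of -2.35, neither of them called. That day 2 differs from day 0 in these genes is therefore not shown by that test.

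**Figure D5:**
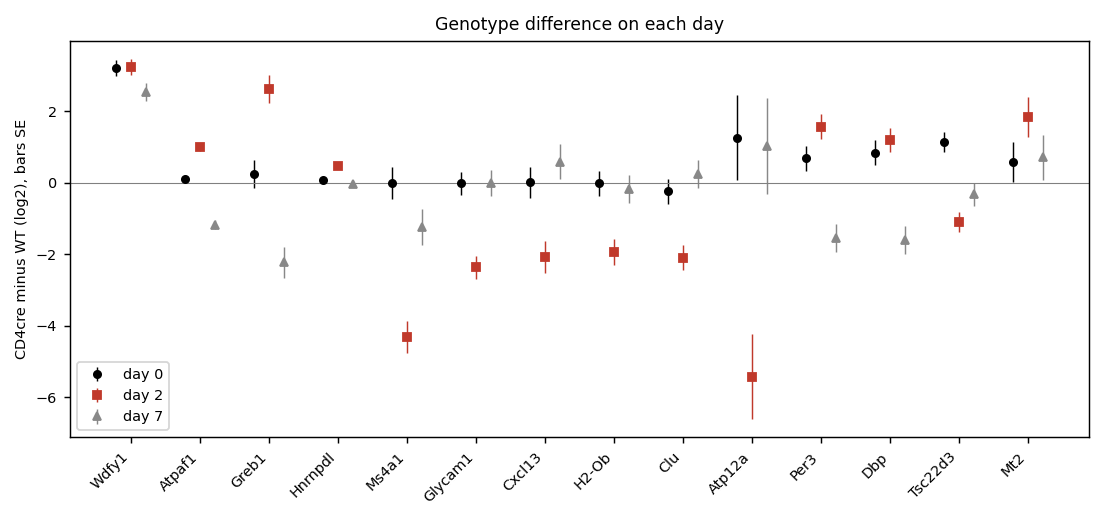
Genotype difference (CD4cre minus WT, log2, with its SE from limma) on days 0, 2 and 7 for 14 genes of the report, with the called probe set of lowest p where there is one. Wdfy1 is high on all 3 days, Ms4a1, Glycam1, Cxcl13, H2-Ob and Clu are near 0 on day 0 and low on day 2, and Greb1, Atpaf1, Per3 and Dbp lie above 0 on day 2 and below it on day 7.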

How the data were processed

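RNA of colonic mucosa was hybridised to Affymetrix arrays, and the authors deposited log2 values made with gcRMA (R 2.9.0 and limma, per the submitters' processing notes). These values were used as deposited. Group means of all 17 samples (6 groups) were fitted to 45037 probe sets, controls left out, with limma 3.58.1 in R 4.3.3, and CD4cre was set against WT on day 2. Adjusted p-values are Benjamini-Hochberg values over all 45037 probe sets, called under 0.05. All adjusted p-values in the text come from this limma fit unless an alternative is named. Gene lists used the probe set of highest mean for each of 18193 genes. Named genes were the called ones whose samples did not overlap, filled in each direction with fewer than 10 calls by the probe sets of lowest p above background to at most 15, then up to 3 members of lowest p in each gene list, genes the paper names and genes of earlier work on these files. Genes named outside this rule, such as further members of a list, were chosen after their values were seen. The members, lists and tests were chosen with earlier results of these data known. The fit was tested on simulated data. Groups came from the sample titles, and 3 arrays a group limit the precision. Alternatives were other sample sets, normalizations, filters, weights, a replicate block and leaving out each sample. Replicate numbers were not treated as pairs in the main fit.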

Additional observations from a re-analysis of the deposited data

Results flagged for a closer look

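The probe set 1447046_at, which has no gene name in the table used, was the only one of 45037 whose genotype difference on day 2 differed from that on day 0 by the limma test of the difference itself, at 1.106 on the log2 scale (adjusted p = 0.0369). It read 5.71, 5.81 and 5.91 in CD4cre and 4.71, 4.73 and 4.71 in WT samples on day 2, while on day 0 the genotypes differed by -0.01.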

How the results depend on the processing

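All 19 calls of day 2 kept their sign under every alternative that tested them (17 of 19 passed the filter on low values). The calls of 2 Wdfy1 probe sets, 1447046_at and the first Ms4a1 probe set were lost under none, and each other call under at least 1. The number called was 45 with only days 0 and 2, 85 without the 3 samples with pancreatic RNA, 29 with array weights, 59 at an adjusted p under 0.1, and 26 to 140 when 1 sample was left out, lowest without WT replicate 1 and highest without CD4cre replicate 1. With the 6 samples of day 2 alone it was 16, of which 5 were among the 19. The split of higher to lower calls, 15 to 4, was 17 to 8 after median centring and 14 to 9 after quantile normalization, and its majority turned to the lower side without WT replicate 1, 2 or 3 (9 to 17, 16 to 28 and 18 to 37) and without pancreatic RNA (38 to 47). Same-numbered samples of the genotypes correlated at -0.29, -0.43 and 0.16 in their deviations. CD4cre replicate 1 and WT replicate 2, the samples with pancreatic RNA, correlated at 0.48. Whether same-numbered samples shared a batch was not tested. The fit with a replicate block called 21, including 15 of the 19, and 0 for the change from day 0. That change, 1 call in the report, had 0 calls after adjustment for the position score, after quantile normalization and with trend and robust fitting, 9 without pancreatic RNA, 34 with array weights and 4 with the filter. The cause of these shifts was not tested. Small differences turned sign in genes that were not called. Without pancreatic RNA Per2 was -0.0987, Vcam1 0.055, Socs3 0.25, Cd8a 0.003 and Zbtb16 0.077. After adjustment for position Pparg was -0.25, Itgax 0.35, Icam1 0.49, Vcam1 0.15 and Il1b 0.81. Hoxb13, at -2.50 in the main fit, was 1.47 there. The score is itself made of Hox genes, so the adjusted value of Hoxb13 is not independent of it. With array weights Itgax was 0.043. With 1 sample left out the range was -0.061 to 0.25 for Per2, -0.29 to 0.20 for Itgax, -0.35 to 0.018 for Vcam1, -0.27 to 0.12 for Il1b, -1.04 to 0.13 for Socs3, -0.24 to 0.066 for Cd4 and -0.31 to 0.0068 for Zbtb16.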
